A study of Mus musculus with 4 samples.

Results

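The 7 genes described here belong to the cell's cholesterol supply. Srebf2 encodes the transcription factor SREBP-2 and Insig1 encodes its brake in the endoplasmic reticulum membrane. Hmgcs1, Idi1, Fdft1, Sqle and Cyp51 encode enzymes of cholesterol synthesis. The members were taken by symbol from the gene lists of both expression libraries, 7 of 32285 genes in all, and each symbol was found once in both. No gene of cholesterol uptake is among the 7, so they are called synthesis and regulation genes below.

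The cells were CD45+ immune cells sorted from the peritoneal lavage fluid of wild-type (WT) and knockout (KO) mice. From an age of 4 weeks all of them ate a high-fat diet, which lasted 3 months, so no library shows the same cells on another diet. Each genotype gave 1 gene expression library made in 10x Genomics droplets and 1 B-cell receptor library from the same droplets. How many mice went into a library is not stated in the labels, and no spread between mice can be estimated.

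Cells make cholesterol from acetyl-CoA in a long chain of steps in the cytosol and endoplasmic reticulum. When membrane sterol falls, the escort protein SCAP carries SREBP-2 to the Golgi, where 2 proteases, encoded by Mbtps1 and Mbtps2, release the part that enters the nucleus. It binds sterol regulatory elements in the promoters of the synthesis genes and of Srebf2 and Insig1 themselves. When sterol is plentiful, INSIG proteins hold SCAP back. Lymphocytes draw on the pathway when they grow and divide, and macrophages balance it against uptake and export of lipid.

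The promoters of the members are the place where SREBP-2 is known to act, and 3 of them are shown because the results turn on Cyp51 and Insig1 and because Hmgcs1 is a textbook SREBP-2 target. RefSeq promoter sequences (GRCm38.p6, 250 bases before to 50 after the start) matched 5 of the 7 members, Srebf2, Insig1, Hmgcs1, Idi1 and Cyp51. Both strands were searched for 4 motifs that do not contain each other: CACNCCAC, a sterol regulatory element core, CCAAT, bound by NF-Y, the GC box GGGCGG, bound by Sp1, and the E-box CACGTG. Each sequence is written 5′ to 3′ on the strand of its gene, and capitals mark a match to any of the 4 on either strand.
Cyp51, chr5:4104648-4104947, minus strand: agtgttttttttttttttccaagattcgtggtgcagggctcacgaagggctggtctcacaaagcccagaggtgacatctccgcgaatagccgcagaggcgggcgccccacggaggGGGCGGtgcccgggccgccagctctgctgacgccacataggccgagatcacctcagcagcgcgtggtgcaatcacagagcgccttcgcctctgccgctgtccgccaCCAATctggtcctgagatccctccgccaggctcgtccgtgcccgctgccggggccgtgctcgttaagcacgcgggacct
Insig1, chr5:28071162-28071461, plus strand: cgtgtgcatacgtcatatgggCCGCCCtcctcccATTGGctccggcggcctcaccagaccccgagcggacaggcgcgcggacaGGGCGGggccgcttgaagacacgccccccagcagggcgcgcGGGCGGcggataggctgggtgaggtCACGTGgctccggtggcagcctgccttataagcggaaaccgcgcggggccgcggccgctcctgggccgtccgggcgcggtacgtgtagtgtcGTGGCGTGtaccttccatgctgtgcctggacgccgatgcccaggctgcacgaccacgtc
Hmgcs1, chr13:119690101-119690400, plus strand: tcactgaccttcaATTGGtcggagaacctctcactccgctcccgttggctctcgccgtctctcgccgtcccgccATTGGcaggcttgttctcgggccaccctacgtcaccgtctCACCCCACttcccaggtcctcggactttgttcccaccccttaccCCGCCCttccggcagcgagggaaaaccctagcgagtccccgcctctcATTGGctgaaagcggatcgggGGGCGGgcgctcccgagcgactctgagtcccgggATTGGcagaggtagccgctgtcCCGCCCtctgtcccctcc

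The sterol regulatory element core was found in the windows of Hmgcs1, at -136 from the start, and of Insig1, at -9 on the opposite strand. It is held by 6.24% of the 32851 promoters in the table. CCAAT was found in all 5 matched promoters and in 37.4% of the table, and the GC box in all 5 and in 35.7%. The E-box was found only in that of Insig1, at -101, among these 5, and in 7.15% of the table. The Cyp51 window holds 1 CCAAT, at -29, and 1 GC box, at -135. These are matches of letters, and no binding was measured.

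The WT expression library held 10087 barcodes with a median of 6362 unique molecular identifiers (UMIs, each standing for 1 captured RNA molecule), and the KO library 22516 with a median of 3298. The libraries share 293 barcode sequences. Barcodes were assigned to B-1, B-2, T, NK and myeloid gates from lineage markers that include no member. In WT and KO the gates held 4173 and 7074 B-1, 942 and 1353 B-2, 1734 and 2518 T, 278 and 347 NK, and 167 and 588 myeloid barcodes. To compare the libraries at equal depth, each barcode was thinned at random to 2000 UMIs and shallower ones were left out. In WT and KO this removed 68 and 515 B-1, 46 and 471 B-2, 94 and 913 T, 16 and 178 NK, and 9 and 49 myeloid barcodes. It kept 94.6% of the WT but 63.7% of the KO T barcodes, and 94.2% and 48.7% of the NK barcodes. Levels are given as CPM, the UMIs of a gene for every 1000000 UMIs of the gate. In every gate all markers of its own lineage list were detected in both libraries. Most of these markers also set the gates, and all of the B-1 and B-2 markers did, so their detection is no independent check. Markers of neutrophils and mesothelial cells summed to at most 0.928 CPM. B barcodes with no B-1 or B-2 assignment made up 14.5% of the kept WT and 24.9% of the kept KO barcodes, and the depth of a barcode sets in part whether it can be assigned.

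Brackets give 95% intervals, exact Poisson for a level and exact conditional binomial for a ratio, and they cover counting error only. Barcodes of a library are not replicates, so the genotypes are compared without a test. In summed UMIs, fewer cells that express a gene and less RNA per cell cannot be told apart. All nucleated cells are thought to use this pathway, so no gate gives a level for free RNA in the droplets.

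With 1 library per genotype, a gene is counted here where it had at least 50 UMIs over both libraries at 2000 UMIs per barcode and differed at least 1.2-fold. In the B-1 gate 1 of 7 members was lower in KO (Cyp51) and 0 were higher. Of all 9529 genes with that many UMIs in the gate, 9.75% were lower and 12.6% higher by that fold. The median log2 ratio of the 7 members was 0.04, beside 0.02 for all genes. In the B-2 gate 3 members had enough UMIs and 0 were past the fold in either direction, where 19.4% of all genes were lower and 13.5% higher. The 3 with enough UMIs had log2 ratios of -0.11 (Srebf2), 0.22 (Hmgcs1) and -0.12 (Cyp51). Over all 7 members, those with fewer UMIs included, the median was 0.02, and that of all genes -0.03. In the T gate 3 of 6 members were lower (Insig1, Idi1 and Cyp51) and 0 higher, where 14.5% of all genes were lower and 15.6% higher. Over all 7 members, Sqle with its 47 UMIs included, the median was -0.33, and that of all genes 0.01. In the NK gate no member had enough UMIs; 21.3% of all genes were lower and 19.6% higher. In the myeloid gate 1 of 2 members was lower (Srebf2) and 0 higher, where 20.9% of all genes were lower and 25.9% higher. The medians over the 7 members in the NK and myeloid gates, -0.44 and -0.34, rest on few UMIs, and those of all genes were -0.01 and 0.03. In NK, Sqle had 0 WT UMIs and so no finite ratio, and it was ranked as the highest for that median. Over all UMIs, without thinning, the 7-member medians were -0.08 in B-1, -0.07 in B-2, -0.12 in T, -0.09 in NK and 0.005 in myeloid barcodes. Those of all genes were 0.03, -0.03, 0.02, 0.006 and 0.02.

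In the B-1 gate, the innate-like B cells that make up much of the peritoneal cavity, the member whose WT and KO levels were apart was Cyp51. It encodes lanosterol demethylase, which removes a methyl group from lanosterol, the earliest sterol of the pathway. At 2000 UMIs per barcode its level was 47.6 CPM (43.0 to 52.6, 391 UMIs) in WT and 34.5 CPM (31.4 to 37.8, 452 UMIs) in KO. The KO level was lower and the intervals did not overlap, with a KO to WT ratio of 0.723 (0.631 to 0.831). Over all UMIs of the gate, without thinning, the levels were 45.6 and 31.2 CPM and the ratio 0.684 (0.637 to 0.734). A single random thinning adds noise, and the exact mean over all possible draws gave 49.5 and 32.3 CPM and a ratio of 0.653. The share of B-1 barcodes with at least 1 Cyp51 UMI at 2000 UMIs was 8.40% in WT and 6.21% in KO. Before thinning these shares were 31.8% and 14.1%, at median depths of 8919 and 4612 UMIs. The summed level of 5 macrophage markers in the B-1 gate was 30.9 CPM in WT, with Fcgr1 at 0, and 60.1 CPM in KO, and that of 3 mast-cell markers 4.26 and 0.915 CPM; their part in the Cyp51 ratio was not tested. No barcode held more than 10 of the 2034 WT or 7 of the 1275 KO Cyp51 UMIs.

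A difference of this kind was seen at each depth with enough barcodes. Among B-1 barcodes with 2000 to 4000 UMIs, Cyp51 was at 64.3 CPM in WT and 35.5 in the KO library. Between 4000 and 8000 UMIs the levels were 55.3 and 30.4 CPM, between 8000 and 16000 they were 46.3 and 32.5, and from 16000 up 37.8 and 23.4. The ratios in these 4 bands ran from 0.549 to 0.703, and each interval lay below 1. Within WT the level of Cyp51 fell from band to band as barcodes grew deeper. Combined over the bands, the ratio was 0.624.

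**Figure D1:**
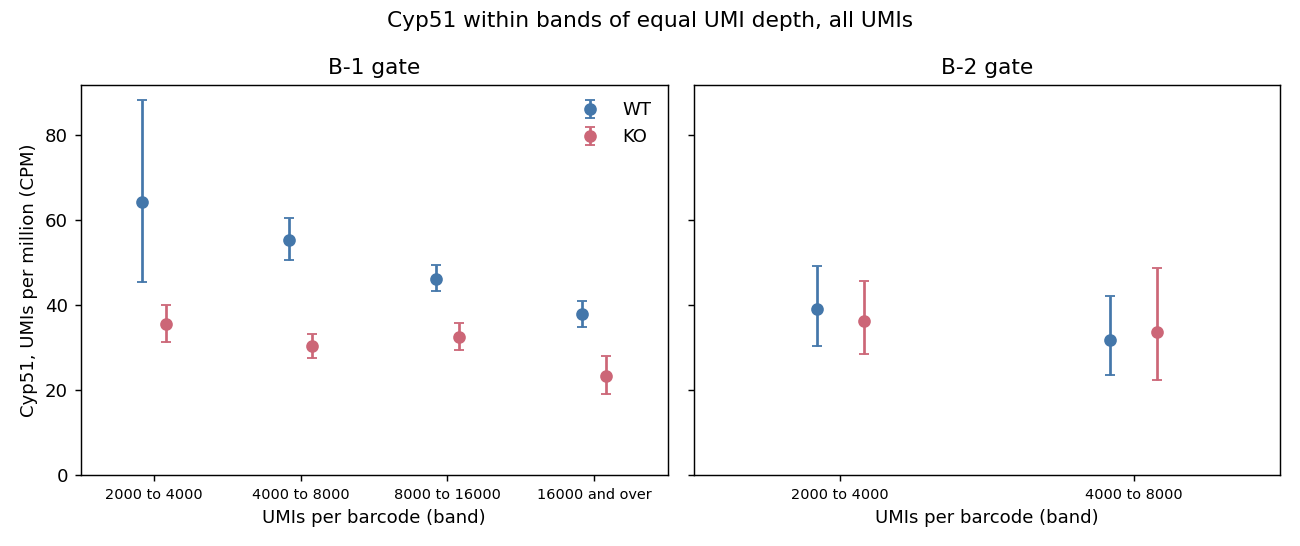
Cyp51 level (vertical axis, CPM) within bands of UMIs per barcode (horizontal axis) in the B-1 and B-2 gates, all UMIs, for bands from 2000 UMIs up with at least 100 barcodes in both libraries. Points are the WT (blue) and KO (red) library and bars are exact Poisson 95% intervals; in the B-1 gate WT lies above KO in the 4 bands (64.3 against 35.5 CPM in the first), while in the B-2 gate the intervals overlap in both bands.

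In the B-2 gate, the conventional follicular-type B cells, the Cyp51 intervals of the libraries overlapped. Its levels were 40.7 CPM (31.9 to 51.2) in WT and 37.4 CPM (28.9 to 47.6) in KO, and the ratio was 0.918 (0.648 to 1.30). The ratio was 1.14 (0.897 to 1.46) over all UMIs and 1.002 as the mean over draws. The order of the B gates therefore differed between the libraries over all UMIs. Cyp51 was higher in B-1 than in B-2 barcodes in WT, by a ratio of 1.26 (1.05 to 1.51), and lower in KO, by 0.751 (0.633 to 0.896). At 2000 UMIs neither difference between the B gates was clear of its interval, and whether the genotype ratio differs between the gates cannot be tested with 1 library each. B barcodes with no subset had 57.1 CPM in WT and 39.5 in the KO library over all UMIs, a ratio of 0.692 (0.602 to 0.796).

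B-1 barcodes were also split by the heavy-chain V gene of their B-cell receptor, since IGHV11-2 and IGHV12-3 are the V genes of B-1 cells that bind phosphatidylcholine, a membrane lipid. In barcodes with IGHV12-3 (407 in WT, 515 in KO), Cyp51 was at 46.4 CPM in WT and 21.8 in the KO library over all UMIs, a ratio of 0.470 (0.345 to 0.633). In those with IGHV11-2 (401 and 423 barcodes) it was at 53.3 and 36.4 CPM, a ratio of 0.682 (0.521 to 0.886). Other heavy chains (1984 and 3662 barcodes) gave 52.5 and 35.1 CPM and a ratio of 0.669 (0.598 to 0.748). Cyp51 was thus lower in KO in the 3 classes, and in KO the IGHV12-3 class stood below other heavy chains, at 0.620 of their level (0.467 to 0.811). In WT that ratio was 0.884 (0.747 to 1.04). At 2000 UMIs the KO to WT ratio of Cyp51 in IGHV12-3 barcodes was 0.391 (0.214 to 0.694), from 39 and 19 UMIs. Many barcodes of these classes share a receptor and so a clone; with 1 barcode per clone in the B-1 gate the Cyp51 ratio was 0.769.

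The other 6 members had B-1 intervals that held 1 at 2000 UMIs. Srebf2 was at 64.2 CPM (58.8 to 69.9) in WT and 66.6 CPM (62.3 to 71.2) in KO, a ratio of 1.04 (0.931 to 1.16). Its mean over draws was 0.966 and its ratio over all UMIs 0.957 (0.908 to 1.008), so the direction turned with the draw. Insig1 was at 12.9 and 11.0 CPM, a ratio of 0.850 (0.657 to 1.10), and over all UMIs its ratio of 0.864 (0.759 to 0.982) lay below 1. The ratios of the early enzymes were 0.892 (0.697 to 1.14) for Hmgcs1, which forms HMG-CoA, and 1.03 (0.739 to 1.43) for Idi1, which isomerises the isoprene unit. Fdft1, which joins farnesyl units to squalene, had 1.19 (0.886 to 1.61), and Sqle, which oxidises squalene, 1.19 (0.686 to 2.13). The upper bounds of Idi1, Fdft1 and Sqle leave room for differences up to those sizes, which were not detectable at this depth. Over all UMIs the ratios of these 4 enzymes lay between 0.943 and 1.02. The 7 members summed were at 157 CPM in WT against 145 CPM in KO, at a ratio of 0.925 (0.861 to 0.993). Cyp51 made up 391 of the 1290 WT UMIs in that sum.

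**Figure D2:**
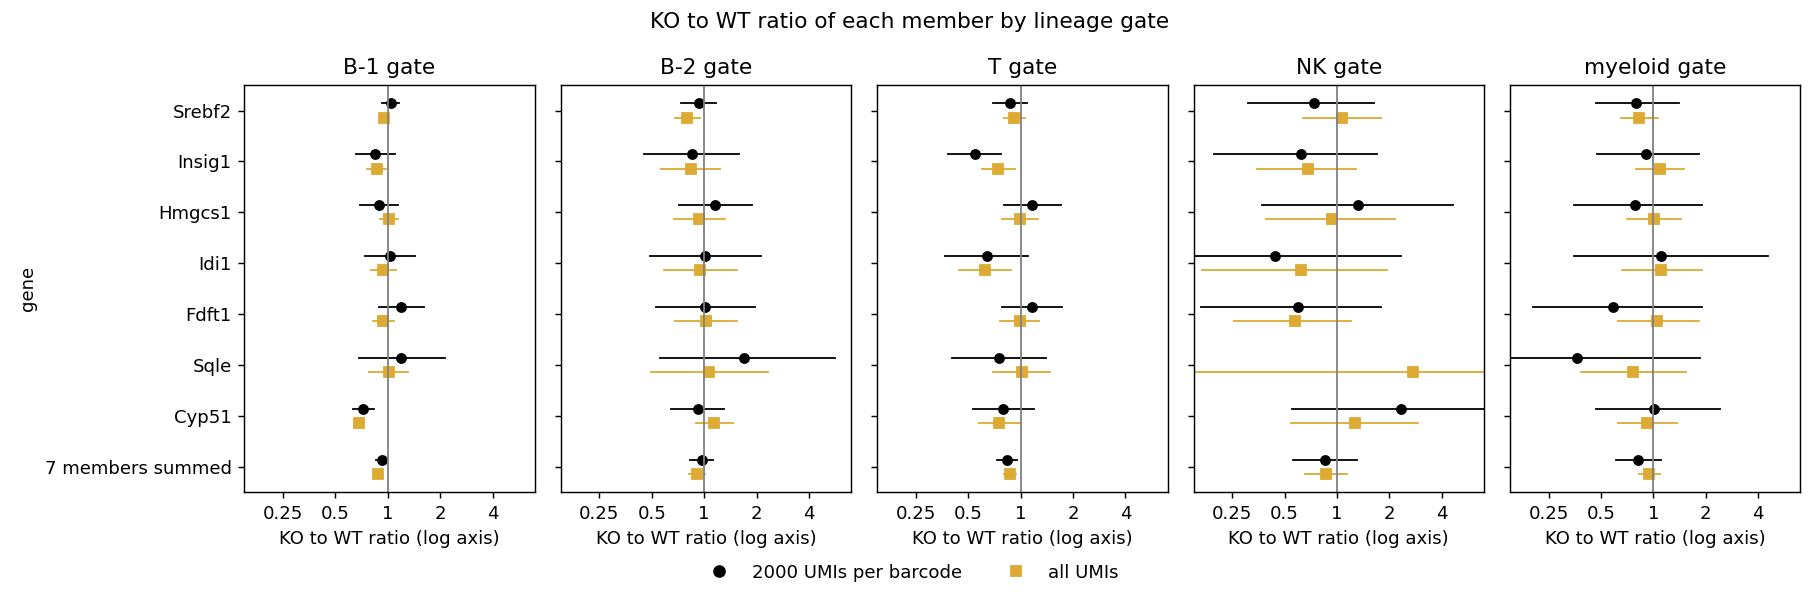
KO to WT ratio (horizontal log axis) of each member and of their sum (rows) in the 5 lineage gates, with black circles for 2000 UMIs per barcode and yellow squares for all UMIs. Lines are exact conditional binomial 95% intervals, cut where they pass the axis, and Sqle in NK at 2000 UMIs is left out because WT had 0 UMIs; Cyp51 lies below 1 in the B-1 gate at both depths (0.723 and 0.684), as does Insig1 in the T gate (0.548 and 0.744).

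Insig1, the brake on SREBP-2, and Idi1 had the lowest ratios of the 7 members in the T gate at 2000 UMIs and over all UMIs. At 2000 UMIs Insig1 was at 29.6 CPM (24.0 to 36.1, 97 UMIs) in WT and 16.2 CPM (12.1 to 21.2, 52 UMIs) in KO, a ratio of 0.548 (0.383 to 0.775). Both the mean over draws, 0.695, and the ratio over all UMIs, 0.744 (0.598 to 0.923), were nearer to 1, so the single draw lay below its own expectation. Idi1 was at 11.6 and 7.48 CPM, a ratio of 0.645 (0.370 to 1.10), and over all UMIs at 12.4 and 7.79 CPM, a ratio of 0.627 (0.443 to 0.880). The mean over draws for Idi1 was 0.585, below that of Insig1. Combined over bands of UMIs per barcode the Idi1 ratio was 0.917, and among barcodes with 8000 to 16000 UMIs, of which KO had 25, it was 2.92 (1.18 to 6.84), so the size of the Idi1 difference depended on how depth was treated. Cyp51 was at 18.0 and 14.3 CPM, a ratio of 0.797 (0.530 to 1.19), or 0.757 (0.577 to 0.988) over all UMIs. Srebf2 was at 54.3 and 47.4 CPM, a ratio of 0.873 (0.698 to 1.09). The remaining enzymes lay on both sides of 1, with Hmgcs1 at 1.17 (0.803 to 1.70), Fdft1 at 1.16 (0.783 to 1.74) and Sqle at 0.757 (0.402 to 1.40). The T sum was 154 CPM in WT against 129 CPM in KO, at a ratio of 0.840 (0.736 to 0.958), and it was 1.01 when barcodes were thinned to 1000 UMIs instead. In the T gate 2 of 5 macrophage markers were above 0 in WT and 3 of 5 in KO. Their summed level was 11.6 CPM in WT against 38.6 CPM in KO, and that of the 7 B-cell markers was 412 and 589 CPM. The 3 mast-cell markers summed to 9.45 CPM in WT and were at 0 in KO. For all of these lists, their part in the T ratios was not tested.

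The T-gate difference in Insig1 and Idi1 was also read in subsets defined by Cd4 and Cd8 UMIs, over all UMIs. In CD4 barcodes (686 in WT, 556 in KO) Insig1 was at 32.3 and 25.9 CPM, a ratio of 0.803 (0.550 to 1.15). In CD8 barcodes (342 and 482) it was at 20.3 and 12.6 CPM, a ratio of 0.620 (0.337 to 1.11). Idi1 had a ratio of 0.438 (0.197 to 0.880) in CD4 and 0.788 (0.382 to 1.58) in CD8 barcodes. Both genes were thus lower in KO in both subsets, but only the CD4 interval of Idi1 lay below 1. The summed members were higher in CD4 than in CD8 barcodes in both libraries, by 1.32 (1.13 to 1.54) in WT and 1.59 (1.30 to 1.95) in KO. Over all UMIs, Srebf2 (1.55 and 1.51) and Insig1 (1.59 and 2.06) carried intervals above 1 in that comparison in both libraries. At 2000 UMIs per barcode Srebf2 did so in KO only (1.83, 1.08 to 3.19). Its WT interval held 1 (1.42, 0.908 to 2.28). Both Insig1 intervals held 1 at that depth (WT 1.99, 0.981 to 4.44, KO 3.21, 0.848 to 17.9). Those of the summed members stayed above 1 (WT 1.36, 1.05 to 1.79, KO 1.69, 1.23 to 2.35).

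In the B-2 gate Srebf2 was at 91.5 CPM (78.0 to 107) in WT and 85.0 CPM (72.0 to 99.8) in KO, a ratio of 0.929 (0.740 to 1.17). Over all UMIs it was at 95.2 and 76.3 CPM, a ratio of 0.801 (0.680 to 0.942). The remaining B-2 ratios at 2000 UMIs were 0.853 for Insig1, 1.16 for Hmgcs1, 1.02 for Idi1 and for Fdft1, and 1.69 for Sqle, each from at most 75 UMIs and with intervals that held 1. The B-2 sum was 190.3 CPM in WT against 184 CPM in KO, at a ratio of 0.968 (0.829 to 1.13). Macrophage markers summed to 16.7 CPM in WT and 39.7 in the KO library here and mast-cell markers to 8.93 and 0.567 CPM; their part in the B-2 ratios was not tested.

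The NK and myeloid gates gave few member UMIs, 104 and 246 over both libraries at 2000 UMIs per barcode. In NK barcodes the ratio of the sum was 0.856 (0.557 to 1.30), and the intervals of the 6 members with a ratio held 1. Over all UMIs the NK sum gave 0.866 (0.654 to 1.14), while Srebf2 turned from 0.738 to 1.07 and Hmgcs1 from 1.33 to 0.938. At 2000 UMIs Sqle had 0 UMIs in 262 WT and 2 UMIs in 169 KO barcodes, too few for a fold. A count of 0 is taken to allow up to 3 UMIs, here a WT level of 5.73 CPM. The 3 mast-cell markers summed to 19.1 CPM in WT and 0 in KO in this gate. B-cell markers summed to 561 CPM in WT and 722 CPM in KO, T-cell markers to 185 and 192, and macrophage markers to 11.5 and 50.3. The part of these lists in the NK ratios was not tested. In myeloid barcodes the sum was at 206 CPM in WT against 168 CPM in KO, at a ratio of 0.816 (0.612 to 1.10). Srebf2 had 0.791 (0.466 to 1.40) and Insig1 0.902 (0.473 to 1.84). Single barcodes weighed on this gate: over all UMIs, 12 of the 50 WT and 14 of the 95 KO Hmgcs1 UMIs came from 1 barcode each. The platelet marker Pf4 was at 345 and 521 CPM in the myeloid gate, with Ppbp at 0 in both libraries. B-cell markers summed to 627 CPM in WT and 501 CPM in KO there, and T-cell markers to 101 and 44.5 CPM. The part of these markers in the myeloid ratios was not tested.

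Between gates the members did not share an order. Srebf2 was highest in B-2 barcodes in both libraries, at 91.5 CPM in WT and 85.0 in the KO library, followed by B-1, myeloid, T and NK. Its B-1 to B-2 ratio was 0.701 (0.588 to 0.841) in WT and 0.784 (0.658 to 0.938) in KO. In WT the B-1, myeloid and T levels were neighbours whose ratio intervals held 1 at 2000 UMIs. Over all UMIs the WT B-1 to T ratio of Srebf2 was 1.25 (1.14 to 1.39). Insig1 ran the other way, with 41.1 and 37.1 CPM in myeloid and 12.9 and 11.0 CPM in B-1 barcodes. The myeloid level exceeded that of B-1, at a B-1 to myeloid ratio of 0.314 (0.176 to 0.609) in WT and 0.296 (0.207 to 0.431) in KO, and B-1 and B-2 did not differ beyond counting error at 2000 UMIs.

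Cyp51 was higher in both B gates than in T barcodes. The B-1 to T ratio was 2.65 (2.01 to 3.54) in WT and 2.40 (1.77 to 3.33) in KO, and the B-2 to T ratio 2.26 and 2.61. Fdft1, the enzyme of the first step committed to sterols, had the opposite order, at 0.567 of the T level in B-1 barcodes (0.390 to 0.832) in WT and 0.580 (0.422 to 0.804) in KO. Sqle was also lower in B-1 than in T barcodes, at 0.311 of the T level (0.167 to 0.571) in WT and 0.489 (0.279 to 0.884) in KO. For Hmgcs1 the B-1 to T ratio in WT was 0.806 (0.580 to 1.13) and that in KO 0.616 (0.458 to 0.836), and over all UMIs both intervals lay below 1, at 0.657 (0.550 to 0.787) and 0.670 (0.553 to 0.816). The Idi1 ratio in WT was 0.641 (0.421 to 0.988) and that in KO 1.02 (0.648 to 1.67), or 0.592 (0.473 to 0.746) and 0.891 (0.664 to 1.21) over all UMIs; the difference between libraries was not tested. The B-1 gate thus combined a high level of Cyp51 with low levels of Fdft1 and Sqle relative to T barcodes in both libraries.

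**Figure D3:**
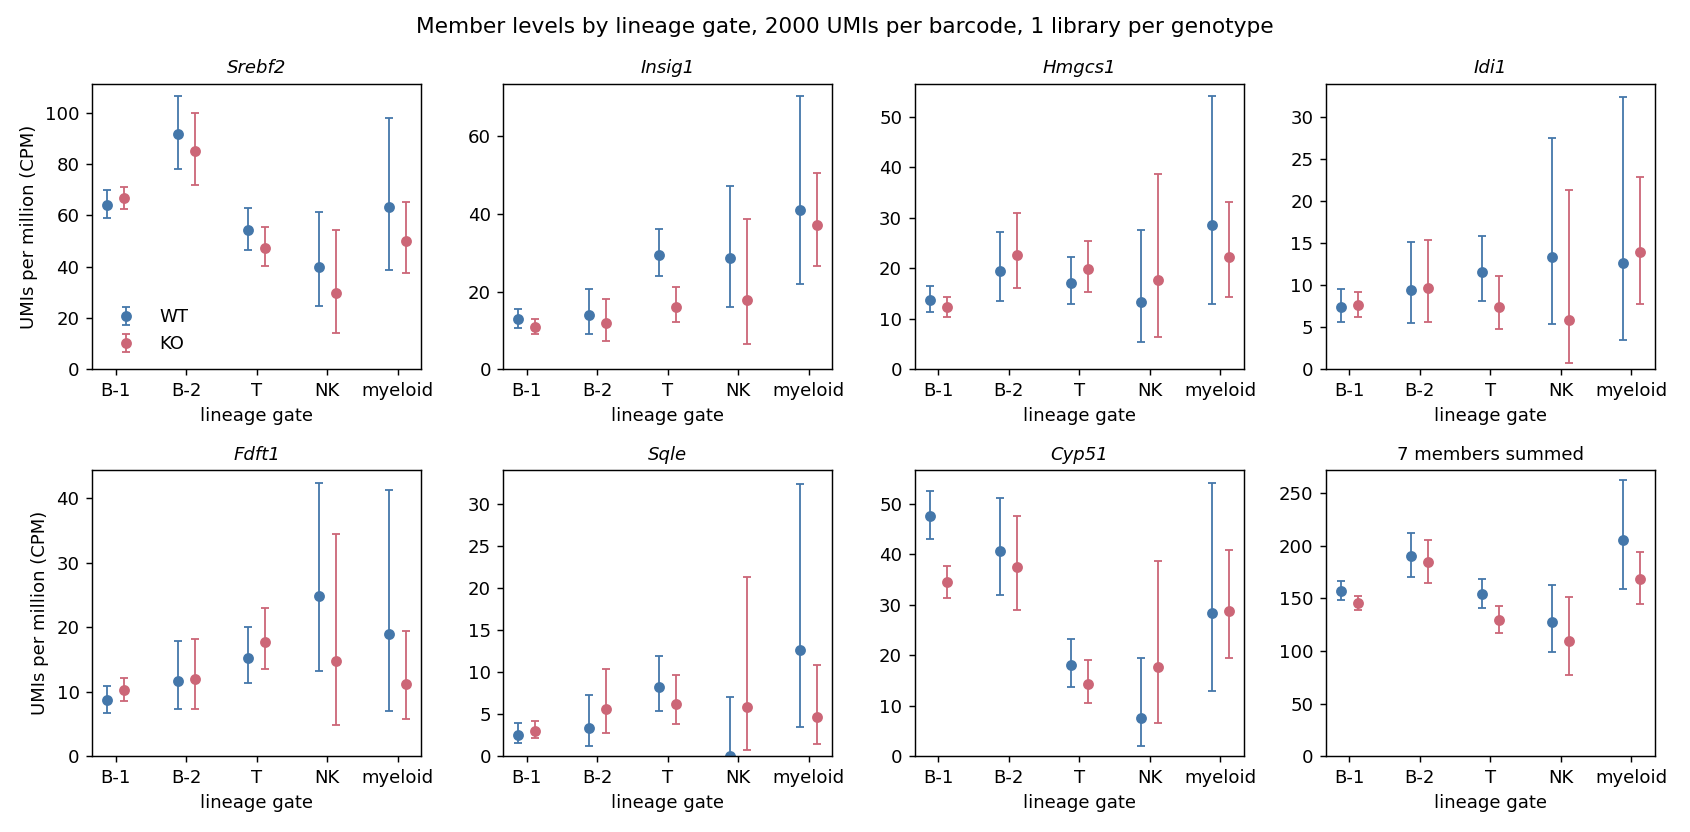
Level of each member and of their sum (vertical axis, CPM, scaled for each gene) in the 5 lineage gates (horizontal axis) at 2000 UMIs per barcode. Points are the WT (blue) and KO (red) library and bars are exact Poisson 95% intervals; Srebf2 peaks in the B-2 gate (91.5 and 85.0 CPM), Insig1 in the myeloid gate (41.1 and 37.1 CPM), and Cyp51 lies higher in the B gates than in T.

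Dividing barcodes, those with at least 3 UMIs of 5 proliferation genes, were few, 48 in WT and 76 in KO, and were read over all UMIs. Idi1 was at 24.0 CPM in dividing and 8.74 CPM in other gated barcodes in WT, a ratio of 2.74 (1.69 to 4.23). In KO it was at 36.7 and 7.57 CPM, a ratio of 4.85 (3.17 to 7.14). Cyp51 had ratios of 1.38 (1.02 to 1.82) in WT and 1.69 (1.196 to 2.33) in KO, but at 2000 UMIs the WT ratio was 1.29 (0.417 to 3.02) and the KO ratio 0.807 (0.219 to 2.08), so in KO the direction turned. Hmgcs1 (1.76, 1.07 to 2.74) and Sqle (3.27, 1.48 to 6.31) had intervals above 1 in KO only, and the difference between libraries was not tested. Srebf2 and Insig1 had ratios between 0.80 and 1.04, with intervals that held 1. At 2000 UMIs per barcode only 3 Idi1 UMIs remained in the dividing barcodes of either library, and the ratios of 3.36 and 2.46 had intervals that held 1. For Fdft1 the WT ratio at that depth was 5.64 (2.04 to 12.5), against 1.67 (0.948 to 2.73) over all UMIs, and the KO intervals held 1 at both depths. The classes are also unlike in gate make-up: 26 of the 48 WT and 38 of the 76 KO dividing barcodes were in the B-1 gate and 13 and 19 in the T gate. Deep barcodes reach 3 UMIs of the proliferation genes more readily, and the part of depth in the ratios over all UMIs was not tested.

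Within the myeloid gate, barcodes with small-macrophage markers and those with dendritic-cell markers differed in direction over all UMIs. In small-macrophage barcodes (64 in WT, 276 in KO) the summed members were at 248 CPM in WT against 164 CPM in KO, at a ratio of 0.660 (0.542 to 0.805). The ratios of single members there ran from 0.294 for Sqle to 0.756 for Idi1. Sqle had 16 WT and 23 KO UMIs in the whole myeloid gate. In that gate 47.2% of all genes had ratios below 1 over all UMIs, and no such share is given for the small-macrophage barcodes. In dendritic barcodes (40 and 121) the sum was at 183 and 243 CPM, a ratio of 1.33 (1.01 to 1.76), with Hmgcs1 at 2.31 (1.04 to 5.80) and Srebf2 at 0.802 (0.512 to 1.27). Without the 1 barcode with most member UMIs in each library, the ratios were 0.731 (0.592 to 0.903) and 1.33 (0.986 to 1.82). At 2000 UMIs per barcode both intervals held 1, at 0.654 (0.430 to 1.02) and 1.01 (0.580 to 1.83). Large-macrophage barcodes numbered 7 in WT and 16 in KO and were not compared.

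**Figure D4:**
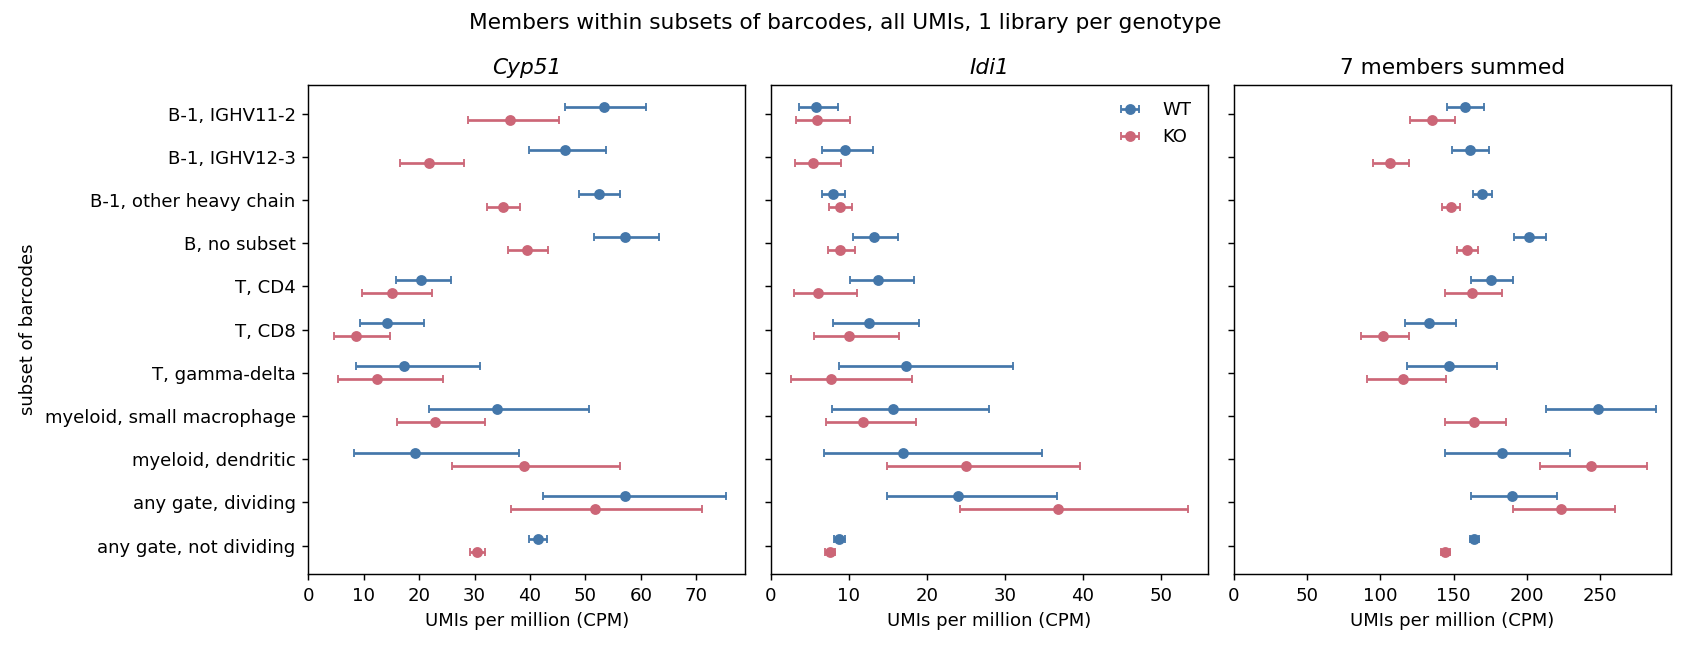
Levels of Cyp51, Idi1 and the 7 members summed (horizontal axes, CPM) in subsets of barcodes (rows) over all UMIs, for the WT (blue) and KO (red) library with exact Poisson 95% intervals. Cyp51 is lower in KO in the 3 heavy-chain classes of the B-1 gate, Idi1 is highest in dividing barcodes (24.0 and 36.7 CPM), and the sum is lower in KO among small-macrophage and higher among dendritic barcodes.

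Other genes of cholesterol handling in the B-1 gate lay on both sides of 1. Of the 15 synthesis enzymes that are not members, 14 had at least 50 UMIs; 2 were lower by 1.2-fold and 1 higher, where 9.75% of all genes in the gate were lower and 12.6% higher. With the members included, 19 of the 20 listed enzymes were measured, and their median log2 ratio was 0.08. The lowest ratios belonged to Tm7sf2, a sterol reductase that acts right after Cyp51, at 0.688 (0.407 to 1.17), and Acss2, which makes acetyl-CoA from acetate, at 0.719 (0.415 to 1.25). The highest were Insig2, the other INSIG protein, at 1.37 (1.08 to 1.75), and Scarb1, a lipoprotein receptor, at 1.31 (0.843 to 2.08). Of the 5 regulators outside the members 1 was lower (Scap, which escorts SREBP-2, at 0.788, 0.625 to 0.995) and 1 higher (Insig2). Over all UMIs Scap was at 0.964 and Insig2 at 1.16 (1.03 to 1.30). Of the 6 uptake and transport genes with enough UMIs 1 was lower (Lipa, the lysosomal lipase, at 0.824, 0.722 to 0.940) and 2 higher, and none of 5 efflux and storage genes passed the fold.

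In the B-2 gate 2 of 5 measured synthesis enzymes outside the members were lower and 1 higher, where 19.4% of all genes were lower and 13.5% higher. With the members included, 7 enzymes were measured, and their median log2 ratio was -0.20. Among pathway genes with at least 50 UMIs, Srebf1, which encodes the related factor SREBP-1, had the lowest ratio, 0.668 (0.377 to 1.16). Scap, with 47 UMIs, was at 0.431 (0.213 to 0.828), and at 0.530 (0.348 to 0.796) over all UMIs. Lipa at 1.26 (0.821 to 1.94) and Apoe, an apolipoprotein, at 1.25 (1.002 to 1.57) had the highest. In the T gate 1 of 11 synthesis enzymes outside the members was lower and 1 higher, where 14.5% of all genes were lower and 15.6% higher. With the members included, 15 enzymes were measured, and their median log2 ratio was -0.01. Outside the members, Acss2, at 0.599 (0.403 to 0.881), and Pmvk, the phosphomevalonate kinase, at 0.777 (0.496 to 1.21), were lowest. Insig2 at 1.40 (0.942 to 2.09) and Mbtps2 at 1.37 (0.849 to 2.24) were highest.

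In the NK gate Acly, which makes cytosolic acetyl-CoA, was at 0.646 (0.363 to 1.11) and Nr1h2, the sterol sensor LXR-beta, at 0.827 (0.521 to 1.29). Ebp, a sterol isomerase, was at 1.30 (0.819 to 2.07). In the myeloid gate 3 of 4 measured uptake and transport genes were lower, with a list median of -0.64, where 20.9% of all genes were lower and 25.9% higher. Among them were Scarb1, at 82.3 and 38.0 CPM and a ratio of 0.462 (0.276 to 0.787), and Lipa at 0.694 (0.470 to 1.04). Over all UMIs the ratios of these 2 were 0.832 and 0.897, with intervals that held 1. Of 3 efflux and storage genes 2 were higher, Apoe at 1.70 (1.56 to 1.84) and Soat1, which esterifies cholesterol, at 1.53 (0.855 to 2.93). Apoe was at 2114 CPM in WT and 3584 in the KO library, and its ratio over all UMIs was 1.24.

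In single barcodes the members were rarely seen together at 2000 UMIs. In the B-1 gate 135 WT and 180 KO barcodes held at least 1 UMI of 2 or more members, 1.18 and 1.15 times the number that independent detection would give. In the T gate 47 and 33 did, 0.932 and 0.971 times that number. Over the 10 sums of gate and library, Srebf2 and Cyp51 had similar profiles of log2(CPM + 1) (Pearson r = 0.74), as had Insig1 and Idi1 (0.76), whereas Fdft1 and Cyp51 ran opposite (-0.87). Of 5971 other genes with enough UMIs, those whose profile was most like the members' mean were Usf2 (r = 0.90), Trnau1ap, Etf1, Klhl18 and Sgpp1 (each 0.87). These correlations describe 10 points that share 2 libraries, with fewer UMIs behind the NK and myeloid sums than behind the rest.

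In the GRCm38 annotation Cyp51 (chr5:4081145-4104746, minus strand) overlaps Akap9 and Fdft1 overlaps Ctsb, each on the other strand, and Srebf2 holds the microRNA gene Mir33 on its own strand. Whether the counting used strand is not stated in the labels, and which end of the transcripts was read is uncertain. In the B-1 gate Akap9 was at 57.1 CPM in WT and 59.8 in the KO library, a ratio of 1.05 (0.933 to 1.18), and Ctsb at 109.5 and 109.6 CPM, a ratio of 1.001 (0.920 to 1.09). How many UMIs of the overlapping stretches were counted for Cyp51 or Fdft1 was not tested.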

How the data were processed

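The deposited expression matrices are raw UMI counts, with genes in rows and barcodes in columns; per the file headers they were written by Cell Ranger 6.1.2. Cell Ranger 6.0.1, mm39 and Seurat 4.3.0 stand in the submitters' processing notes, so the version behind the counts is uncertain, and no coordinates were taken from the files. Per the labels' protocols a 3' kit was used, although a receptor library from the same droplets normally needs a 5' kit, so the transcript end that was read is uncertain. The deposited B-cell receptor files hold UMI and read counts per contig, of which the V gene and CDR3 were used. The name of the knocked-out gene and the values of some genes are not reported here. Members and gene lists were chosen with earlier results of these data known.

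Barcodes needed at least 200 detected genes, with mitochondrial UMIs under 10%. Scrublet (scanpy 1.11.5) called 0 WT doublets automatically and found no threshold in KO, so the highest scores were removed instead, at 0.8% for every 1000 barcodes: 765 in WT and 3933 in KO, leaving 9253 and 18394. A barcode entered the gate of the lineage list with most UMIs if that list had at least 3 UMIs and every other list at most 1 UMI or 10% of them; T barcodes could carry NK-list UMIs. B-1 and B-2 gates needed at least 3 UMIs of their own list and 3 times those of the other. Of the kept barcodes, 6.69% in WT and 10.5% in KO entered no gate. Gates were set on all UMIs, then each barcode was thinned to 2000 UMIs, leaving 8210000 WT and 13118000 KO UMIs in the B-1 gate. Analyses used Python 3.11.15, numpy 2.4.6, scipy 1.17.1 and pandas 2.3.3.

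Named genes were the 7 members, the 2 highest and 2 lowest ratios per gate among pathway genes with at least 50 UMIs and past 1.2-fold, and the 5 genes most alike in profile; Scap in the B-1 and B-2 gates, Lipa in the B-1 and myeloid gates and the overlapping genes Akap9 and Ctsb were added after their values were seen. Thinning and ratio intervals were run on simulated data, where 95.4% of the intervals of 8678 genes held the true ratio. Simulated barcodes of a library shared the same profile, built from WT B-1 barcodes, and KO depths came from all KO barcodes. With no variation between cells or clones, the simulation checks the calculation only and cannot show coverage in the real barcodes. Alternatives changed the depth, the draw, doublet removal, the mitochondrial limit, the gate, the denominator, clones and scaling.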

Additional observations from a re-analysis of the deposited data

Results flagged for a closer look

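The summed members were lower in KO among small-macrophage barcodes, at a ratio of 0.660, and higher among dendritic barcodes, at 1.33, over all UMIs of the myeloid gate. They are listed because the libraries moved in opposite directions in 2 subsets of a gate, each with an interval on its own side of 1. At 2000 UMIs per barcode both intervals held 1, at 0.654 (0.430 to 1.02) and 1.01 (0.580 to 1.83). Without the 1 barcode with most member UMIs in each library the small-macrophage ratio was 0.731 (0.592 to 0.903), while the dendritic interval held 1, at 1.33 (0.986 to 1.82). The difference between the subsets was not tested, as each genotype had 1 library. The largest share of member UMIs from 1 barcode was 15.4% in WT and 5.20% in KO small-macrophage barcodes and 17.1% and 16.0% in dendritic ones. Median UMIs per barcode were 9717 and 4947 in the former and 9518 and 5529 in the latter.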

How the results depend on the processing

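The B-1 ratio of Cyp51 stayed below 1 under 12 other settings and in the mean over draws, from 0.624 to 0.769. That of the B-1 sum also stayed below 1, but moved past its counting interval to 0.847 when thinned to 4000 UMIs, 0.850 within UMI bands, 0.851 with a second random draw and 0.854 without immunoglobulin, T-cell receptor, mitochondrial and ribosomal genes. The T sum reversed to 1.01 when thinned to 1000 UMIs; Insig1, Idi1 and Cyp51 in T stayed below 1 under the 12 settings run there, Idi1 from 0.522 at 1000 UMIs to 0.917 within UMI bands. Counts of members past 1.2-fold were unstable, and over these settings the share of all genes past that fold in either direction ran from 14.4 to 27.2% in B-1, 25.1 to 38.2% in B-2, 24.4 to 36.4% in T and 28.3 to 47.4% in myeloid. In B-1 the count of 1 became 3 when thinned to 1000 UMIs, 2 when thinned to 4000, with the second draw, with gates set at equal depth or without those 4 gene classes, 3 with the stricter gate and 4 with 1 barcode per clone. In B-2 the count of 0 became 1 without thinning, at 1000 UMIs, with the second draw, without those gene classes or with 1 barcode per clone, and 2 within UMI bands. In T the count of 3 became 5 at 4000 UMIs or with gates at equal depth and 1 within UMI bands. In myeloid the count of 1 became 0 at 1000 UMIs or with the stricter gate and 2 within UMI bands or with the second draw. The cause was not tested. All B barcodes together gave a Cyp51 ratio of 0.747; this, the mean over draws and the removal of single barcodes were chosen after seeing the data. No paired analysis was possible because each genotype had 1 expression library.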
